A study of Mus musculus with 24 samples.

Results

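The mitochondrially encoded transcripts were all genes whose symbol in the deposited tables begins with mt-, 37 of 52636 genes. They comprised 13 messenger RNAs, 2 ribosomal RNAs and 22 transfer RNAs, which is the full gene set of the mouse mitochondrial genome. They were measured in bone marrow-derived macrophages of 6 mice aged 8 to 12 weeks, grown for 6 days in medium conditioned by L cells. The labelled knockouts (KO), KO-176, KO-281 and KO-301, had the genotype Csf1r-iCre HuR fl/fl, and the controls (HET), HET-97, HET-102 and HET-129, had the genotype Csf1r-iCre HuR +/fl. The Csf1r promoter drives the Cre recombinase in macrophages and other cells of the myeloid lineage, and HuR is the RNA-binding protein encoded by Elavl1. All 6 mice, controls included, carried the Cre and expressed the ribosomal protein L10a fused to EGFP. Plates from each mouse were held for 18 h in hypoxia (1% O2) or normoxia (20% O2). Each of the 12 cleared lysates was divided into ribosome-bound RNA, obtained by affinity purification through the tagged L10a (translating ribosome affinity purification, TRAP), and total RNA. The 24 poly(A) libraries formed 8 groups of 3 mice each.

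The mitochondrial genome encodes a small set of hydrophobic subunits of respiratory complexes I, III, IV and V, together with the rRNAs and tRNAs needed to translate them inside the organelle. Both strands are transcribed into long precursors, tRNAs are cut out between the other genes, and most of the released mRNAs receive short poly(A) tails. These mRNAs are read by mitochondrial ribosomes, whose proteins are distinct from those of cytosolic ribosomes, and L10a belongs to the cytosolic large subunit. In macrophages, oxygen supply and activation state are known to shift energy production between the respiratory chain and glycolysis.

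Values were TPM, the share of a library taken by a gene after adjustment for its length, so read depth is unknown and fewer cells of a type cannot be told apart from less RNA per cell. All 9 macrophage markers were detected, with a summed level of 12144 to 23790 TPM in TRAP RNA and 16043 to 27497 TPM in total RNA. Summed markers of neutrophils reached 92.2 TPM in TRAP RNA and 99.3 TPM in total RNA, those of fibroblasts 3.29 and 60.2 TPM, and those of B, dendritic, T, erythroid and mast cells stayed at or below 10.2 and 9.91 TPM. Total RNA of normoxic mice showed no lower Elavl1, the gene targeted, with 35.1, 34.8 and 36.1 TPM in KO against 29.9, 30.8 and 35.7 TPM in HET mice. In hypoxia the values were 29.4, 34.9 and 26.1 TPM in KO and 21.2, 59.8 and 24.9 TPM in HET mice. In TRAP RNA hypoxic KO-176 stood at 1.75 TPM and normoxic KO-301 at 0.840 TPM, while the other 4 KO libraries held 12.2 to 23.5 TPM and the 6 HET libraries 10.5 to 18.1 TPM. The other TRAP library of each of these 2 mice was within the range of the rest, and genotypes are given as labelled. Loss of an exon cannot be read from a value summed over the gene.

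Mice KO-281, KO-301 and HET-129 stood apart from the other 3 in total RNA. Mitochondrial rRNAs took 26.9 to 39.8% of the mitochondrial TPM in KO-281 and KO-301 and 20.2 to 33.1% in HET-129, against 7.27 to 7.87% in KO-176 and 6.14 to 9.66% in HET-97 and HET-102. The nuclear RNA Malat1 moved with this share in normoxia, at 487 and 803 TPM in KO-281 and KO-301 and 751 TPM in HET-129, against 185 TPM in KO-176 and 138 and 195 TPM in HET-97 and HET-102. The mRNA of Rpl10a was lower in the same mice, at 1136 and 489 TPM in KO-281 and KO-301 and 1063 TPM in HET-129, against 1584 TPM in KO-176 and 1961 and 1982 TPM in HET-97 and HET-102. The part of RNA quality or culture state in this split was not tested. Each genotype held such mice. Without the 3 of them, leaving 1 KO and 2 HET mice, mt-Cytb was still called lower in TRAP RNA at -6.003 ± 0.283 (SE) on the log2 scale, and 0 members were called for hypoxia in total RNA, where calls over all genes went down to 2.

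Mitochondrial transcripts made up 1.20 to 4.74% of the TPM in the poly(A) libraries of total RNA. Their sums, and shares taken of them, include mRNAs whose levels are uncertain, as given below. In hypoxia the 37 genes summed to 40727, 45610 and 11998 TPM in KO-176, KO-281 and KO-301, and to 30954, 30010 and 23860 TPM in HET-97, HET-102 and HET-129. In normoxia the sums were 47434, 45300 and 24590 TPM in KO-176, KO-281 and KO-301, and 38860, 37161 and 25592 TPM in HET-97, HET-102 and HET-129. The KO and HET ranges overlapped at both oxygen levels, and hypoxic KO-301 held the lowest sum.

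**Figure D1:**
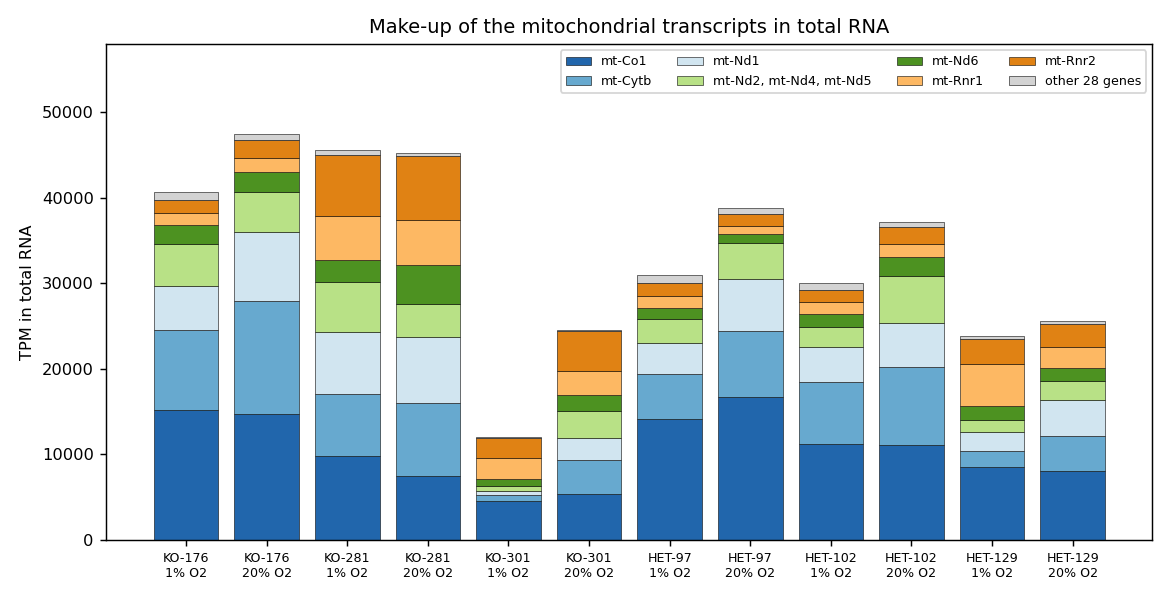
Summed TPM of the 37 mitochondrial genes in each total RNA library, stacked by gene, for 3 labelled knockout and 3 control mice at 1% and 20% oxygen. The 2 rRNAs fill 6.14 to 9.66% of the bars of KO-176, HET-97 and HET-102 and 20.2 to 39.8% of those of KO-281, KO-301 and HET-129.

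The mRNA of cytochrome c oxidase subunit 1, mt-Co1 (ENSMUSG00000064351, chromosome M, 5328 to 6872, plus strand, GRCm38), had the highest median level in total RNA. It ranged from 4481 to 16711 TPM with a median of 10472 TPM, and exceeded mt-Cytb in 11 of 12 libraries. The mRNA of cytochrome b in complex III, mt-Cytb (chromosome M, 14145 to 15288, plus strand), had a median of 7214 TPM, and mt-Nd1, a membrane subunit of complex I (chromosome M, 2751 to 3707, plus strand), one of 4651 TPM. The order of neighbours held less well below these, since mt-Cytb exceeded mt-Nd1 in 9 of 12 libraries, mt-Nd1 exceeded mt-Rnr2 in 9, and mt-Rnr1 exceeded mt-Nd6 in 7. The large and small rRNAs mt-Rnr2 and mt-Rnr1 had medians of 2217 and 2035 TPM.

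Other complex I mRNAs followed, with medians of 1733 TPM for mt-Nd6, 1435 TPM for mt-Nd2 and 966 TPM for mt-Nd5. The gene mt-Nd6 (chromosome M, 13552 to 14070) is the only mRNA gene of the set on the minus strand, and in human cells its transcript carries no stable poly(A) tail. The mRNA mt-Nd4 was erratic in total RNA. It stood at 2139, 2806 and 260 TPM in hypoxic KO-176, KO-281 and KO-301 and at 348, 215 and 128.8 TPM in hypoxic HET-97, HET-102 and HET-129. In normoxia it was 694, 670 and 1571 TPM in the KO mice and 398, 2757 and 0 TPM in the HET mice, in the same order. The 2 libraries of a mouse could differ widely, and normoxic HET-129 was listed at 0.

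The 6 remaining mRNAs were low. Medians were 43.8 TPM for mt-Co2 and 8.21 TPM for mt-Co3, the other core subunits of complex IV, and 4.16 TPM for mt-Atp8 and 0.185 TPM for mt-Atp6, the membrane subunits of ATP synthase. The complex I subunits mt-Nd3 and mt-Nd4l had medians of 3.54 and 0.606 TPM. These genes lie on the same plus-strand precursor as mt-Co1 and mt-Cytb. In all 12 total RNA libraries the highest of the 6 (84.5 TPM, mt-Co2 in normoxic KO-281) remained below the lowest value of mt-Co1 (4481 TPM).

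**Figure D2:**
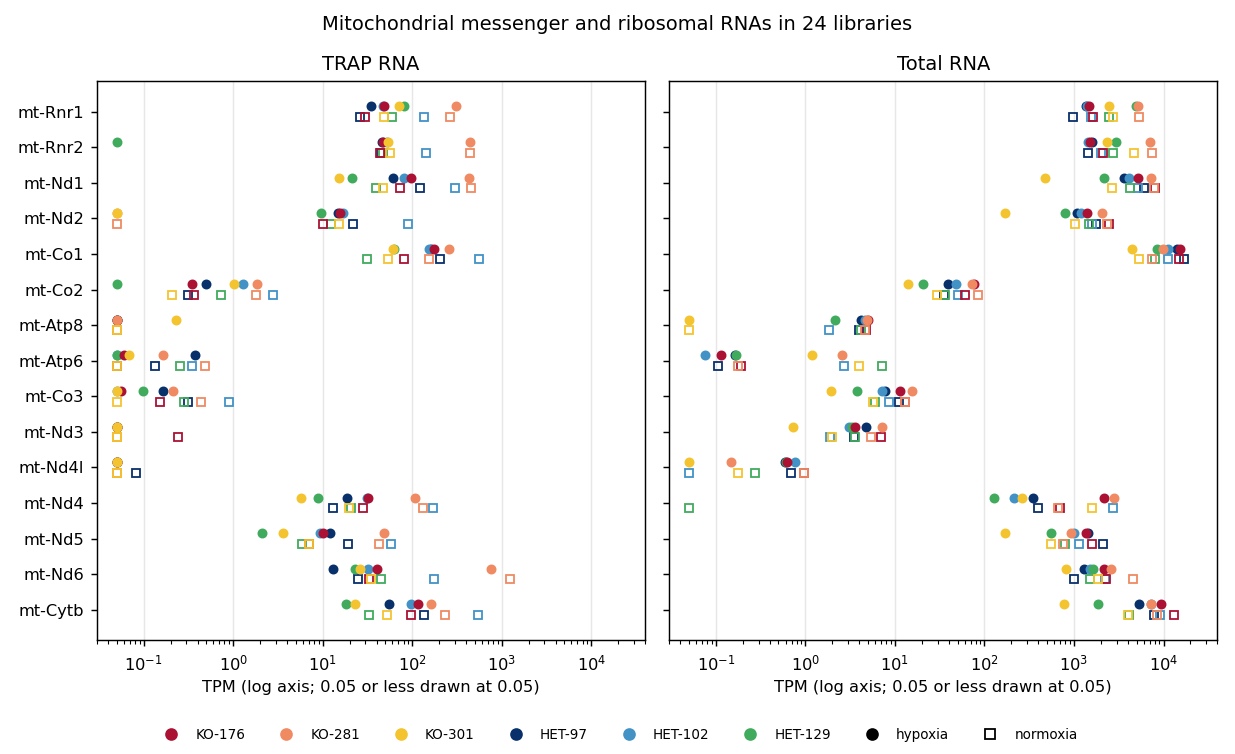
TPM of the 13 mitochondrial mRNAs and 2 rRNAs in genome order, in 12 TRAP libraries (left) and 12 total RNA libraries (right), on a log axis, with hypoxia as filled circles and normoxia as open squares, coloured by mouse. In total RNA the run from mt-Co2 to mt-Nd4l lies at or below 84.5 TPM, between the higher mt-Co1 and mt-Nd4. The TRAP and total RNA ranges overlap for mt-Nd4, mt-Nd6, mt-Atp6, mt-Atp8 and mt-Nd4l. In TRAP RNA mt-Co3 and mt-Nd3 reach at most 0.903 and 0.241 TPM.

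The low mRNAs shared a feature of sequence. Segments of the mitochondrial genome have been copied into nuclear chromosomes, and 7 annotated copies lie together on chromosome 1 (24611535 to 24616197, GRCm38). When each transcript was divided into overlapping windows of 50 bases, 98.0 to 100% of the windows of mt-Co2, mt-Co3, mt-Atp6, mt-Nd3 and mt-Nd4l were also found, without a mismatch, in a nuclear transcript of the GENCODE annotation. The shares were 62.2% for mt-Nd4, 51.1% for mt-Co1, 8.19% for mt-Nd2 and 7.61% for mt-Nd5. They were 0% for mt-Nd1, mt-Nd6, mt-Cytb and mt-Rnr1. The 5 mRNAs with nearly all windows shared had medians of 0.185 to 43.8 TPM, and the 7 mRNAs with at most 62.2% shared had medians of 534 to 10472 TPM. The exception was mt-Atp8, which shares 0% of its windows and stood at 4.16 TPM. The last 43 of its 204 bases match Gm10925 without a mismatch, a stretch shorter than the window. The gene mt-Atp8 lies between mt-Co2 and mt-Atp6. Their copies Gm28661 and Gm10925 flank a stretch of chromosome 1 with no annotated transcript, which was not searched. For mt-Nd4 the first 876 of 1378 bases are identical to the copy Gm28439.

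The first 60 bases of mt-Co2, which is low, and of mt-Cytb, which is high, are shown with their nuclear copies because they display this difference in the letters themselves (GENCODE transcripts, GRCm38, read 5′ to 3′ on the strand of the transcript). Capitals mark bases of a copy that differ from the mitochondrial gene above it.
mt-Co2, chrM:7013-7072, plus strand: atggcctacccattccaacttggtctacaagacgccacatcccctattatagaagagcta
Gm28661, chr1:24615506-24615565, minus strand: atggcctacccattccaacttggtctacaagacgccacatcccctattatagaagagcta
Gm13341, chr2:22587903-22587962, minus strand: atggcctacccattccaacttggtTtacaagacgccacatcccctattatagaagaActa
mt-Cytb, chrM:14145-14204, plus strand: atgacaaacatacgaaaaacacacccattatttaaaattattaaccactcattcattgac
Gm11410, chr4:80003989-80004048, plus strand: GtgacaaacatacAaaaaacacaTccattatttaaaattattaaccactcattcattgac
The copy Gm28661 has 0 differences from mt-Co2 in this stretch, Gm13341 has 2, and the mt-Cytb copy Gm11410 has 3. Over whole alignments Gm28661 matched mt-Co2 at 100% of 681 bases and Gm11410 matched mt-Cytb at 92.9% of 1142 bases.

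The copies themselves were listed at low levels. In total RNA, Gm29216, which matches the 3′ end of mt-Co1, ranged from 18.7 to 44.0 TPM, and Gm28661 from 5.97 to 30.6 TPM. The copies of mt-Atp6 (Gm10925) and mt-Co3 (Gm28437) had medians of 8.45 and 7.90 TPM, against 0.185 TPM for mt-Atp6 and 8.21 TPM for mt-Co3 themselves. How the authors treated reads that match more than 1 place is not given in the sources used here, and its part in the low values was not tested. Levels of mt-Co2, mt-Co3, mt-Atp6, mt-Nd3, mt-Nd4l and mt-Nd4 are therefore uncertain in every comparison that follows, as is that of mt-Co1, with 51.1% of its windows shared, and its rank above mt-Cytb. That of mt-Atp8, which lies between 2 such genes, is uncertain too.

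**Figure D3:**
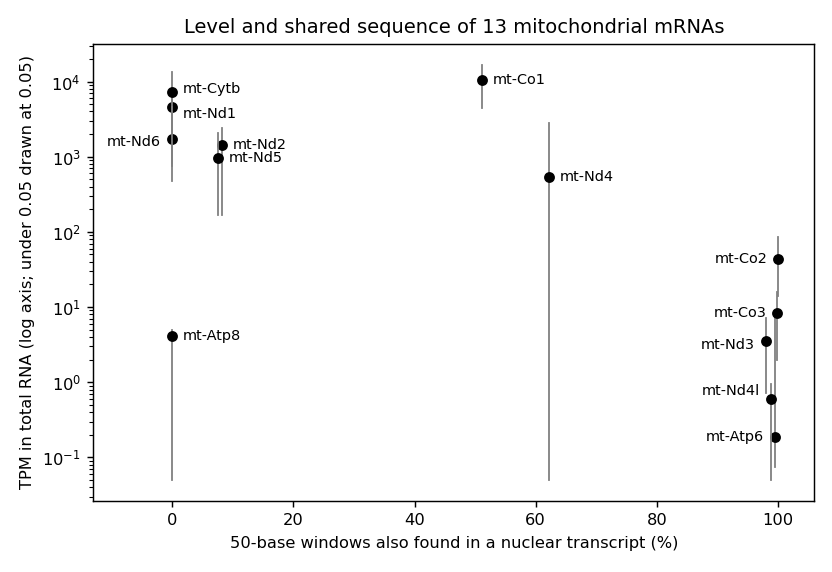
Median TPM in 12 total RNA libraries (points, log axis) with the lowest and highest library (bars) of the 13 mitochondrial mRNAs, against the percentage of 50-base windows also found in a nuclear transcript. The 5 mRNAs at 98.0% or more lie at or below a median of 43.8 TPM, and mt-Atp8 is the only mRNA with 0% shared that lies as low.

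Transfer RNAs are too short to be captured well in libraries of this kind, and most were near 0. The tRNA for leucine mt-Tl1 (chromosome M, 2676 to 2750) lies between mt-Rnr2 and mt-Nd1 and was the most abundant, with a median of 391 TPM in total RNA. The tRNA for tryptophan mt-Tw, next to mt-Nd2, had a median of 44.0 TPM, and that for threonine mt-Tt, next to mt-Cytb, one of 16.7 TPM. At 1 TPM or more in 3 libraries, the filter of the fits, 12 of 22 tRNAs passed in total RNA and 2 of 22 in TRAP RNA. In the TRAP libraries 14 tRNAs were listed at 0 in all 12, and mt-Td was listed at 0 in all 24 libraries. Whether a value at a tRNA came from the tRNA or from an uncut precursor or neighbour was not tested.

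Mitochondrial transcripts were far lower in TRAP RNA than in total RNA of the same lysates. Summed over the 37 genes they reached 0.0229 to 0.298% of the TPM in TRAP libraries, against 1.20 to 4.74% in total RNA libraries. In hypoxia the TRAP sums were 616, 2550 and 264 TPM in KO-176, KO-281 and KO-301 and 446, 541 and 229 TPM in HET-97, HET-102 and HET-129. In normoxia they were 403, 2984 and 336 TPM in the KO mice and 624, 2182 and 303 TPM in the HET mice, in the same order. Expressed as a percentage of the total RNA sum of the same lysate, 9 of 12 lysates lay between 0.850 and 2.20%. The other 3 were both KO-281 lysates, at 5.59% in hypoxia and 6.59% in normoxia, and normoxic HET-102 at 5.87%.

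The 6 mice were compared with the mean of both oxygen levels in each fraction, on the log2(TPM + 1) scale, with limma and the mouse as a block. The adjusted p is a Benjamini-Hochberg value over all genes tested, with a threshold of 0.05. All 26 mitochondrial genes tested passed as lower in TRAP RNA, against 64.2% of the 12918 genes tested. In separate fits 23 of 24 were lower in hypoxia, against 59% of genes, and 23 of 24 in normoxia, against 59.2%. Of these, 14 passed the filter through total RNA only and had to be lower, so the comparison rests on the 12 that reached 1 TPM in 3 libraries of each fraction. All 12 were lower, with a median log2 difference of -5.39, against 65.5% lower and a median of -0.57 among 11420 genes that passed in both fractions. Of these 11420 genes only 2 outside the set had a difference as low as the least negative of the 12. The nuclear copy Gm29216, which matches the 3′ end of mt-Co1, was 1 of these 2, at -4.20. The other, at -5.18, was an entry listed with a date in place of a symbol. Members held 9 of the 10 lowest differences in the whole table.

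Among complex I mRNAs, mt-Nd1 stood at 97.01, 427 and 15.2 TPM in TRAP RNA of hypoxic KO-176, KO-281 and KO-301, against 5121, 7254 and 476 TPM in their total RNA. In the HET mice the hypoxic TRAP values were 61.2, 81.2 and 21.4 TPM against 3599, 4113 and 2170 TPM in total RNA. The fractions did not overlap, and the log2 difference was -5.48 ± 0.28 (SE, 6 mice). The log2 differences were -6.08 ± 0.37 for mt-Nd5 and -4.84 ± 0.47 for mt-Nd6. For mt-Nd2 the fitted difference was -7.11 ± 0.62 with an adjusted p of 1.71e-05. It was the lowest difference of all genes, but mt-Nd2 was listed at 0 in TRAP RNA of KO-281 at both oxygen levels and of hypoxic KO-301. With values at 0 taken as missing, KO-281 and KO-301 dropped out of its fit, and the difference was -6.22. For mt-Nd4 the difference was -3.68 ± 0.66, lower in 5 of 6 mice, and HET-129, whose normoxic total RNA was listed at 0, went the other way. With values at 0 taken as missing, HET-129 dropped out of the fit of mt-Nd4 at both oxygen levels, and the difference was -4.49 ± 0.34.

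In complex III, mt-Cytb had the smallest p of the set. It stood at 117, 163 and 22.8 TPM in hypoxic TRAP RNA of KO-176, KO-281 and KO-301, against 9393, 7252 and 763 TPM in total RNA. In HET-97, HET-102 and HET-129 the hypoxic values were 55.2, 97.7 and 18.4 TPM in TRAP RNA, against 5257, 7175 and 1858 TPM in total RNA. The log2 difference was -5.95 ± 0.22 with a limma adjusted p of 2.30e-06, lower in 6 of 6 mice. In complex IV, mt-Co1 differed by -6.32 ± 0.27 (adjusted p 3.34e-06) and the low mt-Co2 by -4.59 ± 0.22. The rRNAs mt-Rnr2 and mt-Rnr1 differed by -5.52 ± 0.51 and -4.99 ± 0.20, and the tRNAs mt-Tl1 and mt-Tw by -5.30 ± 0.27 and -5.00 ± 0.26. The differences of these 7 RNAs, mt-Cytb included, lay between -6.32 and -4.59. The other tRNAs tested passed the filter through total RNA only and differed by less, from -3.44 for mt-Tt to -0.62 for mt-Tl2. For mt-Co2 and mt-Tw, with TRAP medians of 0.614 and 0.0188 TPM, the added 1 TPM limits how low the difference can go. Sizes were therefore not compared between kinds of RNA. The rRNA mt-Rnr2 was listed at 0 in hypoxic TRAP RNA of HET-129. With such values taken as missing, this mouse dropped out of its fit, and the difference was -4.89.

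Quantile normalisation moved the median of all genes in this comparison from -0.54 to 0.01 on the log2 scale. Under it all 12 mitochondrial genes that passed in both fractions were lower, with a median of -5.21, against 26.8% lower among the 11420 genes. The difference between fractions did not differ detectably by oxygen or by genotype. In limma tests of these interactions 0 of 26 members and 0% of 12918 genes passed for either. At an unadjusted p under 0.05 there were 1 member for oxygen and 0 for genotype, against 547 and 509 of all genes. The median SE of members was 0.4 for oxygen and 0.795 for genotype, against 0.184 and 0.258 for all genes. In these fits the variance trend of limma followed the mean difference, not the level. Sizeable differences in the members could therefore be missed.

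**Figure D4:**
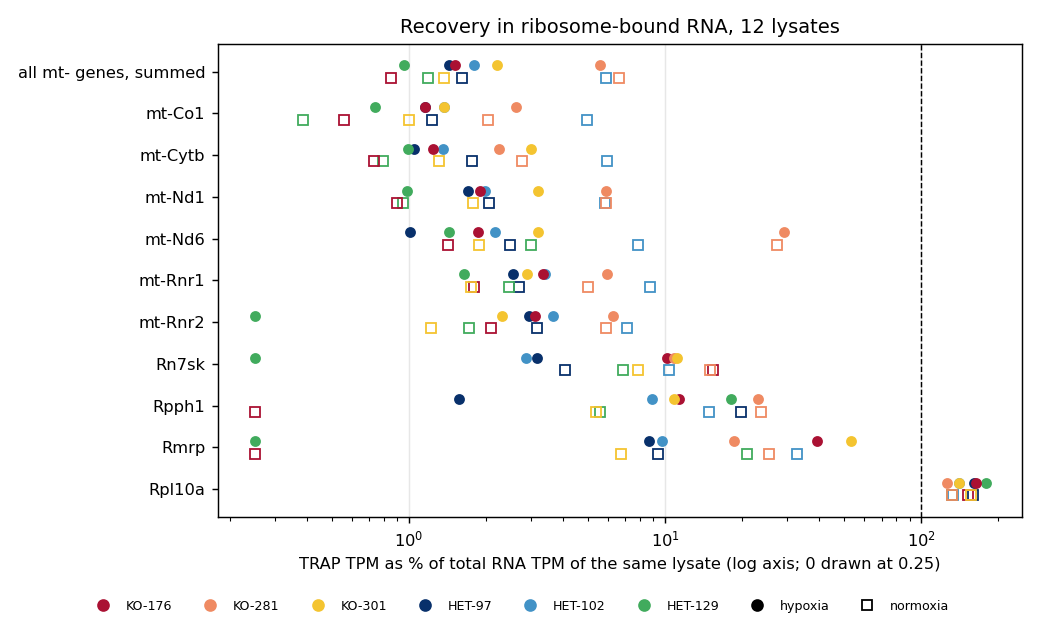
TPM in TRAP RNA as a percentage of TPM in total RNA of the same lysate (log axis), for the summed mitochondrial genes, 6 of them, 3 nuclear noncoding RNAs and Rpl10a, with hypoxia as filled circles and normoxia as open squares, coloured by mouse; values listed at 0 are drawn at 0.25. Mitochondrial sums lie at 0.850 to 6.59%, Rpl10a at 126 to 179%, and mt-Nd6 of KO-281 stands alone at 27.4 and 29.2%.

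Several nuclear noncoding RNAs that work outside cytosolic ribosomes were also low in TRAP RNA, by less. Of 11 tested, 9 were lower and 2 higher, against 64.2% of all genes lower and 8.17% higher. Only 8 of the list reached 1 TPM in 3 TRAP libraries. The rest passed the filter through total RNA only and had to be lower, so the count was not read as a result about the list. The log2 difference was -3.32 ± 0.23 for Rn7sk, which restrains transcription elongation, -2.79 ± 0.17 for Rpph1, the RNA of nuclear RNase P, and -2.30 ± 0.16 for Rmrp, the RNA of RNase MRP (limma adjusted p 9.95e-06, 8.7e-06 and 9.71e-06). The nuclear RNA Malat1 differed by -1.76 ± 0.32. Gas5 and Snhg1, spliced snoRNA host transcripts, were higher by 0.56 ± 0.07 and 0.38 ± 0.08. Among the other genes with the lowest differences, chosen after their values were seen, was the nuclear copy Gm29216 at -4.20 ± 0.14, which reached at most 1.47 TPM in TRAP RNA.

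Nuclear-encoded partners of the mitochondrial subunits went the other way. Of 71 respiratory chain subunits read by cytosolic ribosomes, 50 were higher in TRAP RNA and 3 lower, with a median log2 difference of 0.51. Over all 12918 genes tested, the background for each list here, 64.2% were lower and 8.17% higher. Uqcr10 and Uqcrh of complex III were higher by 1.20 ± 0.13 and 1.03 ± 0.11, Cox4i1 and Cox6b1 of complex IV by 0.81 ± 0.08 and 0.67 ± 0.09, and Atp5k of ATP synthase by 1.08 ± 0.10. Atp5a1 and Atp5b, the alpha and beta subunits of ATP synthase, were lower, at -0.62 ± 0.08 and -0.34 ± 0.07. Of 42 nuclear-encoded factors of mitochondrial transcription, RNA processing and decay, 32 were lower and 0 higher, with a median of -0.47 that lay close to the -0.54 of all genes. The lowest included Mtpap, the mitochondrial poly(A) polymerase, at -1.09 ± 0.09, Fastkd5, an RNA-binding factor needed for processing of mitochondrial mRNAs, at -1.04 ± 0.17, and Pde12, which removes mitochondrial poly(A) tails, at -1.01 ± 0.12. The mRNA of the tagged protein's parent gene, Rpl10a, was higher by 0.56 ± 0.06, and 4 of 8 ribosomal protein mRNAs were higher and 0 lower. Of 15 mRNAs for secreted and membrane proteins, which are translated at the endoplasmic reticulum, 12 were lower and 1 higher. Their median of -0.29 was less negative than the -0.54 of all genes.

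Mouse KO-281 differed from the other 5 in the make-up of its TRAP RNA. Its mt-Nd6 stood at 762 TPM in hypoxia and 1250 TPM in normoxia in TRAP RNA, against 2605 and 4562 TPM in total RNA. That is 29.2 and 27.4% of the total RNA value, against 1.01 to 7.82% in the other 10 lysates. The mRNA mt-Nd6 made up 29.9 and 41.9% of the mitochondrial TPM in the 2 TRAP libraries of KO-281, more than any other gene, and 2.94 to 14.8% in the other 10. In the same libraries mt-Nd2 was listed at 0, while mt-Nd1 stood at 427 and 458 TPM. Without KO-281 the log2 difference of mt-Nd6 between TRAP and total RNA was -5.45 and that of mt-Nd2 was -6.32, and both passed. Normoxic HET-102, the other lysate with a high sum, had 7.82% for mt-Nd6, 4.96% for mt-Co1 and 8.70% for mt-Rnr1. In KO-281 mt-Nd1 stood at 5.88% in hypoxia and 5.87% in normoxia and mt-Rnr1 at 5.91 and 5.02%, while mt-Co1 stood at 2.61 and 2.05%. Raised shares for several genes were thus seen in both lysates of KO-281 and in the normoxic lysate of HET-102. The hypoxic lysate of HET-102 had a sum of 1.80%, with mt-Nd6 at 2.16%. The share of mt-Nd6 in KO-281 was the highest of those compared.

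Hypoxia changed no mitochondrial transcript past the threshold in total RNA. In a limma fit blocked by mouse, 0 of 26 members passed, against 3.97% of the 12403 genes tested, and 6 members had an unadjusted p under 0.05, against 22.6% of all genes. The complex IV mRNA mt-Co1 stood at 15194, 9850 and 4481 TPM in hypoxic KO-176, KO-281 and KO-301, against 14699, 7481 and 5300 TPM in the same mice in normoxia. In HET-97, HET-102 and HET-129 it was 14110, 11222 and 8527 TPM in hypoxia, against 16711, 11095 and 7990 TPM in normoxia. Values were higher in hypoxia in 4 mice and lower in 2, and the log2 difference was 0.01 ± 0.09 (SE, adjusted p 0.955).

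Values of mt-Nd1, mt-Nd2 and mt-Cytb were lower in hypoxia in 6 of 6 mice, without passing the threshold. They were 3 of the 26 members tested, a share near the 9.28% of all genes tested that showed this pattern. The mRNA mt-Cytb stood at 9393, 7252 and 763 TPM in hypoxic KO-176, KO-281 and KO-301, against 13227, 8489 and 3980 TPM in normoxia. In HET-97, HET-102 and HET-129 it was 5257, 7175 and 1858 TPM in hypoxia, against 7758, 9070 and 4162 TPM in normoxia. Log2 differences were -0.86 ± 0.27 for mt-Cytb, -0.87 ± 0.28 for mt-Nd1 and -0.94 ± 0.28 for mt-Nd2, with limma adjusted p of 0.114, 0.119 and 0.105. Mouse KO-301 set much of the size. In it the 3 mRNAs stood in hypoxia at 19.2, 18.0 and 16.3% of their normoxic TPM, against 44.6 to 93.0% in the other 5 mice, and without it the log2 differences were -0.56, -0.55 and -0.61.

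The ratio of mt-Cytb to mt-Co1 within a library, which does not depend on the library total, was lower in hypoxia in all 6 mice. It was 0.618, 0.736 and 0.170 in hypoxic KO-176, KO-281 and KO-301, against 0.900, 1.13 and 0.751 in normoxia. In HET-97, HET-102 and HET-129 it was 0.373, 0.639 and 0.218 in hypoxia, against 0.464, 0.818 and 0.521 in normoxia. This ratio was chosen after the values were seen and was not tested.

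The rRNAs and mt-Nd6 had no common direction. For mt-Rnr2 the log2 difference between hypoxia and normoxia was -0.30 ± 0.15, for mt-Rnr1 0.16 ± 0.17, and for mt-Nd6 -0.36 ± 0.20, each with mice on both sides of 0. Among tRNAs, mt-Tv, the valine tRNA between the rRNA genes, was higher in hypoxia in 6 of 6 mice, as were 6.88% of genes, with a log2 difference of 1.21 ± 0.33 (adjusted p 0.0865) and levels of 0.682 to 11.6 TPM. The tryptophan tRNA mt-Tw stood at 94.5, 59.7 and 12.6 TPM in hypoxic KO-176, KO-281 and KO-301, against 43.6, 22.5 and 25.1 TPM in normoxia. In HET-97, HET-102 and HET-129 it was 98.7, 105.8 and 38.6 TPM in hypoxia, against 51.0, 44.3 and 27.6 TPM in normoxia. It was higher in 5 of 6 mice, with a log2 difference of 0.70 ± 0.29 (adjusted p 0.202), and without KO-301, the exception, it was the only member called, at 1.02 ± 0.13 (adjusted p 0.0306). Its neighbour mt-Nd2 was lower in hypoxia in all 6 mice.

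**Figure D5:**
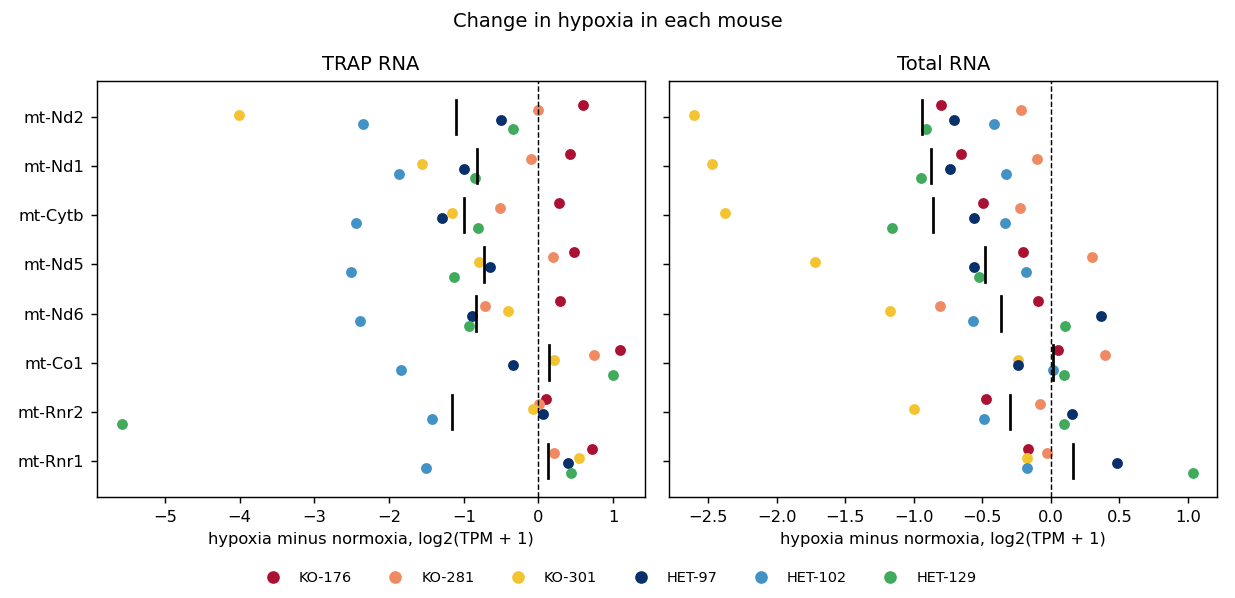
Difference between hypoxia and normoxia on the log2(TPM + 1) scale in each of 6 mice (points) and their mean (black line) for 6 mRNAs and 2 rRNAs, in TRAP RNA (left) and total RNA (right). In total RNA all points of mt-Nd2, mt-Nd1 and mt-Cytb lie below 0 with KO-301 farthest out, and those of mt-Co1 lie within 0.40 of 0.

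In TRAP RNA, hypoxia changed 0 of 12 members past the threshold, against 0.0343% of 11676 genes, and 3 members had an unadjusted p under 0.05, against 14.7% of all genes. The lowest p belonged to mt-Cytb, at -0.99 ± 0.30 with a limma adjusted p of 0.221, lower in 5 of 6 mice. In TRAP RNA mt-Nd1 differed by -0.83 ± 0.28 and mt-Co1 by 0.15 ± 0.36. Within each genotype, limma without the block called 0 members and 0% of genes in either fraction. At an unadjusted p under 0.05 there were 0 to 2 members and 258 to 398 of all genes. These fits did not use the pairing of plates within a mouse. The median SE of members in total RNA was 0.667, against 0.251 in the blocked fit over 6 mice. The lack of calls within a genotype is therefore no evidence that hypoxia had no effect.

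The nuclear-encoded side showed few calls in total RNA under hypoxia. Of 42 factors of mitochondrial gene expression 1 fell and 0 rose, against 2.4% of genes lower and 1.56% higher. The gene that fell was Trmt10c, a subunit of the mitochondrial RNase P that cuts tRNA 5′ ends out of precursors, at -0.50 ± 0.07 (adjusted p 0.0186). Of 71 respiratory chain subunits 1 fell, Ndufa5 of complex I, at -0.35 ± 0.06 (adjusted p 0.0236), and 0 rose. Both calls were lost when some single mice were left out. The adjusted p of Trmt10c was 0.0724 with KO-176 left out, 0.0601 with HET-102 left out and 0.0624 with HET-97 left out. That of Ndufa5 was 0.0516 to 0.0829 when each mouse in turn was left out. Rexo2, an exonuclease that degrades short mitochondrial RNA, Slirp, an RNA-binding protein that stabilises mitochondrial mRNAs, and Hsd17b10, another RNase P subunit, had the highest levels of the list and differed by -0.15, -0.22 and 0.04. The nuclear RNA Malat1, which moved with the split between mice in normoxia, fell in hypoxia by 1.16 ± 0.11 on the log2 scale (adjusted p 0.00793).

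Labelled genotype made no detectable difference in any of the 4 combinations of oxygen and fraction. In each, limma called 0 members and 0% of all genes, with 1 or 2 members and 234 to 486 of all genes at an unadjusted p under 0.05, and sharing the variance over 12 libraries also called 0 members. In normoxic total RNA the mitochondrial sum averaged 39108 ± 12618 TPM in KO and 33871 ± 7220 TPM in HET mice (SD, n = 3 each), and in hypoxia 32778 ± 18161 and 28275 ± 3852 TPM. In normoxic total RNA the log2 difference between KO and HET was -0.45 ± 0.48 for mt-Co1, 0.20 ± 0.53 for mt-Cytb and 0.85 ± 0.43 for mt-Nd6. The median SE of the 24 members tested was 0.495 there, against 0.287 for all genes, so these transcripts varied more between mice than most genes. The median difference between KO and HET over the members in hypoxic total RNA, none of them called, was -0.21 over 6 mice, 0.49 without KO-301 and HET-129, and 0.27 without KO-281, KO-301 and HET-129, where the lone KO mouse is assumed to vary like the HET mice. The effect of hypoxia did not differ detectably between KO and HET, with 0 members and 0% of genes passing in total or TRAP RNA, and 1 and 0 members at an unadjusted p under 0.05, against 593 and 478 of all genes. In total RNA the median of this difference over the members was -0.36 over 6 mice, 0.05 without KO-301 and HET-129, and -0.08 without KO-281 as well.

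The cysteine tRNA mt-Tc (chromosome M, 5192 to 5257, minus strand) was the only member whose values moved in opposite directions in hypoxia in all KO and all HET mice, which 1.96% of genes tested in total RNA did. It was listed at 0 in hypoxic KO-176, KO-281 and KO-301, against 2.11, 5.76 and 3.55 TPM in normoxia. In HET-97, HET-102 and HET-129 it stood at 1.02, 2.43 and 2.86 TPM in hypoxia and was listed at 0 in normoxia. The interaction was -3.77 ± 0.36 on the log2(TPM + 1) scale, with an unadjusted limma p of 2.53e-05 and an adjusted p of 0.314, and passed with a pseudocount of 0.1. Its neighbour on the minus strand, the asparagine tRNA mt-Tn (chromosome M, 5089 to 5159), stood at 1.65, 3.89 and 0.442 TPM in normoxic KO-176, KO-281 and KO-301. The same tRNA was listed at 0 in the 9 other total RNA libraries. These levels are low and the number of reads behind them is unknown, so no difference was established for either tRNA.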

How the data were processed

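The authors deposited TPM per gene, total RNA and TRAP RNA in separate files. HISAT, DESeq2 and GRCm38 appear per the submitters' processing notes; versions, strand setting and the treatment of reads with several matches were not given in the sources used here. Columns summed to 999629 to 999969 TPM, no 2 were identical, and depth is unknown, so no counting interval was given. Another 30 numeric columns of authors' values were not used. Genes were matched by Ensembl identifier to GENCODE M21, with 233 not matched.

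Values were taken as log2(TPM + 1), genes with 1 TPM in 3 libraries fitted were kept, and limma 3.58.1 (trend) was run in R 4.3.3 (package data.table, version 1.17.8), two-sided, with Benjamini-Hochberg adjustment over all genes. The script was tested on simulated data. Mouse numbers mark the same animal: deviations from group means correlated at 0.547 to 0.792 between oxygen levels in total RNA, 0.385 to 0.707 in TRAP RNA and 0.379 to 0.743 between fractions. Members and gene lists were chosen with earlier results of these data known. All mRNAs and rRNAs and the tRNAs that passed could be named, and of each list the 3 highest and up to 4 called in each direction. Errors of TPM are SDs and those of log2 differences SEs. Alternatives were other pseudocounts, filters and scalings, mice left out, the block, values at 0 as missing, and KO-281, KO-301 and HET-129 left out together, these last 2 chosen after seeing the data.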

Additional observations from a re-analysis of the deposited data

Results flagged for a closer look

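Per-mouse differences were examined in 38 sets of 6 mice (mRNAs and rRNAs tested in 3 comparisons). Of these, 7 held a mouse whose gap to the nearest other exceeded Dixon's limit, where chance flags about 1 in 20 independent sets. The sets share mice and libraries and are not independent, so the count was not compared with that rate. In TRAP against total RNA, KO-281 stood at -1.82 on the log2 scale for mt-Nd6, against -5.90 to -4.58 in the other 5 mice. For mt-Nd2 the same mouse stood at -11.1, against -7.09 to -5.12, with TRAP values listed at 0. KO-301 stood at 0.15 for mt-Atp8, against -2.55 to -2.0, and its total RNA value was listed at 0. In hypoxia against normoxia in total RNA, KO-301 stood at -2.47 for mt-Nd1 and -2.61 for mt-Nd2, against -0.95 to -0.10 and -0.91 to -0.22 in the others. In TRAP RNA, HET-102 stood at -1.51 for mt-Rnr1, against 0.21 to 0.71, where its normoxic library held the high mitochondrial sum. HET-129 stood at -5.58 for mt-Rnr2, against -1.43 to 0.09, and its hypoxic value was listed at 0. The hypoxia effect on mt-Tc in total RNA, KO minus HET, was -3.77, with every KO mouse lower and every HET mouse higher in hypoxia; the test of that difference gave a limma adjusted p of 0.314. Causes of these values were not tested.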

How the results depend on the processing

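In TRAP against total RNA, 26 members were called over 6 mice and 24 to 26 when single mice were left out. Under quantile normalisation the calls were 23 of 26 tested, and 21 of 24 in hypoxia alone and in normoxia alone. Over all genes, in either direction, they were 6747 of 12918, 5535 of 12256 and 5171 of 12147. The member counts over 6 mice include 14 that passed the filter through total RNA only and had to be lower. The 12 that passed in both fractions were all lower under quantile normalisation, against 26.8% of 11420 genes. With values at 0 as missing, a mouse with such a value in either fraction does not enter the difference of that gene. The calls were then 14 of 15 tested, and in hypoxia alone 15 of 17 against 23 of 24. In normoxia alone a filter of 5 TPM gave 15 of 16 against 23 of 24, since fewer genes were tested. No called gene changed direction. Calls were lost for mt-Tp, mt-Tl2 or mt-Atp6, all low, in 7 of 417 repeats of single genes. In hypoxia against normoxia in total RNA, leaving out single mice gave 0 to 1 calls. The call was mt-Tw, higher, without KO-301, and 1 remained without both KO-301 and HET-129, again mt-Tw, while calls over all genes went down to 140 and 8, against 492. With a pseudocount of 0.1, 1 member, mt-Tc, was lower in hypoxia in KO and 1, mt-Tc, in the effect of KO minus HET. With the replicate block, hypoxia within a genotype called 0 members, as without it, and TRAP against total over 6 mice called 26 with or without the block. Unknown depth limits all low values.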
